A study of Mus musculus with 5 samples.

Results

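This account describes the promoter contacts of Nr5a1 and Lhx9 and of their genomic neighbours Nr6a1, Dennd1b and Nek7 in the supporting cells of the fetal mouse gonad. The members were every cis row (both ends on the same chromosome) of the deposited interaction tables in which either end carried the name of one of these 5 genes. The rule found 33 of 29421 cis rows where single fragments serve as baits (the original baits) and 37 of 51524 where bins of about 5 kb do (the extended baits). The names of 4 of the 5 genes occurred, and no row of either table named Nek7, which was not analysed further. The number of trans rows naming a member was 0 in both tables.

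Contacts were measured by capture Hi-C, which ligates DNA ends that lie close together in crosslinked chromatin and enriches the products that contain chosen promoter fragments, the baits. There were 3 libraries of Sertoli cells, the supporting cells of the testis, sorted at E13.5 from mice labelled Sox9IRES-GFP, and 2 libraries of pre-granulosa cells, their counterpart in the ovary, sorted at E13.5 from mice labelled Enh8-mCherry, with about 100000 cells in each library. Each row gives 1 CHiCAGO score per cell type, a measure of how far the read pairs exceed a background that falls with distance, and a contact is called here at a score of at least 5. All libraries of 1 cell type were given as a single column, so no value below has a replicate error, no test between the cell types was possible, and every difference compares 2 pools of libraries. Neither the read depth nor marker expression could be set beside the scores.

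Nr5a1 encodes SF-1, an orphan nuclear receptor without which gonads and adrenal glands do not form and which later drives the genes of steroid synthesis and of anti-Müllerian hormone. Lhx9 encodes a LIM homeodomain factor that the early gonad needs to form and that activates the Nr5a1 promoter together with WT1. Nr6a1 encodes GCNF, another orphan receptor, which represses pluripotency genes in the early embryo and binds DNA elements built from the same half-site as those of SF-1. Dennd1b encodes an exchange factor for Rab35 in endocytosis, and Nek7 a mitotic kinase that is also part of the NLRP3 inflammasome.

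Positions are in mm10, the build named in the submitters' processing notes, and gene positions are those of RefSeq on GRCm38.p6. Nr5a1 (chr2:38692656-38714542) lies next to Nr6a1 (chr2:38723369-38926461). Beyond the promoter of Nr6a1 follow Olfml2a, Wdr38, Rpl35, Arpc5l and Golga1. Lhx9 (chr1:138825186-138848839) is followed by 2310009B15Rik and by Dennd1b (chr1:138963709-139176043). Of the 5 genes, 4 had an entry in the RefSeq promoter table, which gives 250 bases before and 50 bases after a transcription start, and for 2 of these, Nr6a1 and Dennd1b, an entry overlapped a bait. The promoters below are those at the member baits and at Wdr38, the partner in the highest-scoring contact. All are printed 5′ to 3′ on the gene's strand, with capitals for the DpnII cut site GATC and for the half-site described below.

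Nr6a1 at bait Nr6a1-201, chr2:38926412-38926711, minus strand: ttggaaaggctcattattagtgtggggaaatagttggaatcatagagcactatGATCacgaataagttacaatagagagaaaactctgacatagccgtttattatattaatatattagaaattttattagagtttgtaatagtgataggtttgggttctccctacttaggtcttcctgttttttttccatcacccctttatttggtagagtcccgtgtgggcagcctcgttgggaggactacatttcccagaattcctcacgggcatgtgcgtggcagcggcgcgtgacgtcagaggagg

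Nr6a1 at bait Nr6a1-210, chr2:38784466-38784765, minus strand: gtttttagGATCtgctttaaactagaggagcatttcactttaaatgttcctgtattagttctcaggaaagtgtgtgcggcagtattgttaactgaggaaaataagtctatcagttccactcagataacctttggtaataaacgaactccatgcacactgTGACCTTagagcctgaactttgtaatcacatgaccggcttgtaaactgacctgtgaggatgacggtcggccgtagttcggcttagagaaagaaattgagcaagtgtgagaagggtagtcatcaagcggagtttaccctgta

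Wdr38 at bait Wdr38-202, chr2:38998059-38998358, plus strand: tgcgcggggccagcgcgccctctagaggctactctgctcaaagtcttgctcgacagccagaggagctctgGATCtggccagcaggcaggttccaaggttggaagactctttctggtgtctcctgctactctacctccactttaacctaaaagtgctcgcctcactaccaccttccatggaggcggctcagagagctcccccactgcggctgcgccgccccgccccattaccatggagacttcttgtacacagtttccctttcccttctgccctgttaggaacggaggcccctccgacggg

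Dennd1b at bait Dennd1b-209, chr1:138963459-138963758, plus strand: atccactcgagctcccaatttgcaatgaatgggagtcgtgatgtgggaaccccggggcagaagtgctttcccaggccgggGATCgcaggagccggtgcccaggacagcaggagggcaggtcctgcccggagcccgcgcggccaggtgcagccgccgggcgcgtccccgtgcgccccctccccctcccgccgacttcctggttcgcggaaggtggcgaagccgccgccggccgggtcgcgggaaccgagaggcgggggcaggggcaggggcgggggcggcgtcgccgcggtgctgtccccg

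Each of these windows held 1 GATC, and each lay exactly at a border of the bait named. Over the whole table, 1853 borders of original baits fell inside a RefSeq promoter window, and 1853 of them carried GATC, so the coordinates of the tables and of the sequences are those of the same build. The half-site AAGGTCA, the core of SF-1 and GCNF elements, was searched on both strands. The window at Nr6a1-210 held 1 match, at position -91 from the start and printed as TGACCTT, and the other 3 windows held none; 4.72% of the 32851 promoter windows hold it. The LIM homeodomain core TAATTA (5.29% of all windows) and a CTCF core motif (2.43%) had 0 matches in all 4. Each motif was searched as a fixed pattern, and variants that depart from the pattern in a fixed letter were not searched. The missing CTCF matches therefore hold for that pattern only, and whether these windows, that of Wdr38 included, hold a variant CTCF motif was not tested. A match is a description of letters and not of a bound site.

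Most of the listed contacts of the region belonged to 1 bait named for Nr6a1. Bait Nr6a1-202 (chr2:38927184-38928023), which lies just beyond the annotated gene and overlaps no RefSeq promoter window, had 18 listed bins, against a median of 2 per bait, and 1.69% of the 7915 baits had as many. Of its bins, 13 were called in Sertoli cells, 14 in pre-granulosa cells and 9 in both. Over all rows at Nr5a1 and Nr6a1 with the original baits, 12 of 30 were called in both cell types, where the share over all cis rows of that table was 21.5%. Sertoli cells called 23 of the 30 (79.5% of all cis rows) and pre-granulosa cells 19 (42% of all cis rows). The order of these counts turned when the Sertoli threshold was raised to 6.37, at which both cell types have equally many calls over the whole table: 16 Sertoli calls then stood against 19 pre-granulosa calls, with 11 shared. With the extended baits 14 of 30 were shared (34.3% of all cis rows), with 23 Sertoli calls (78%) and 21 pre-granulosa calls (56.3%). Rows of 1 bait share reads and are not replicates.

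The strongest contact joined Nr6a1 to the region of Wdr38, a gene for a WD-repeat protein. Nr6a1-202 contacted the bin chr2:38991470-38997384, which lies 66.8 kb upstream of Nr6a1 and ends just before Wdr38, with a score of 33.2 in Sertoli and 34.1 in pre-granulosa cells. Of the 29421 cis rows, this one ranked 1 by the Sertoli score and 2 by the pre-granulosa score. The bin past the Wdr38 start, chr2:38998604-39004211, scored 22.5 and 20.5 and reached into Rpl35, a gene for a protein of the large ribosomal subunit. The bin before the peak, chr2:38986337-38991469, scored 14.6 and 17.1. The cell types therefore had their highest values at the same 3 bins, and at each of them the scores differed by less than 3.

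Between the bait and this peak, contacts ran over touching bins across Olfml2a, which encodes an extracellular olfactomedin-like protein. On the upstream side, 16 bins were listed and fell into 3 runs of touching bins. Of these, 9 were called in both cell types, 4 only in Sertoli cells and 3 only in pre-granulosa cells. Over all original cis rows these classes hold 21.5%, 58% and 20.5%. Over the 16 bins the median score was 8.03 in Sertoli and 7.12 in pre-granulosa cells. Across these bins Sertoli and pre-granulosa scores had a Pearson correlation of 0.95 and a Spearman correlation of 0.77; the bins share 1 bait and its libraries, and a bin is listed only if 1 score reaches 5. The farthest bins, at 88.4 and 93.4 kb over Arpc5l and Golga1, were called only in Sertoli cells, at 6.33 and 7.45 against 3.71 and 3.89.

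The gene-body side of Nr6a1-202 looked different. Only 2 bins were listed there, and both were called in pre-granulosa cells alone. The bin at -37.5 kb, chr2:38887649-38892655, scored 7.19 in pre-granulosa and 0.98 in Sertoli cells. The bin at -129.0 kb, chr2:38795930-38801309, scored 5.97 and 1.85. Over all cis rows of the table, 20.5% were called only in pre-granulosa cells and 58% only in Sertoli cells.

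**Figure D1:**
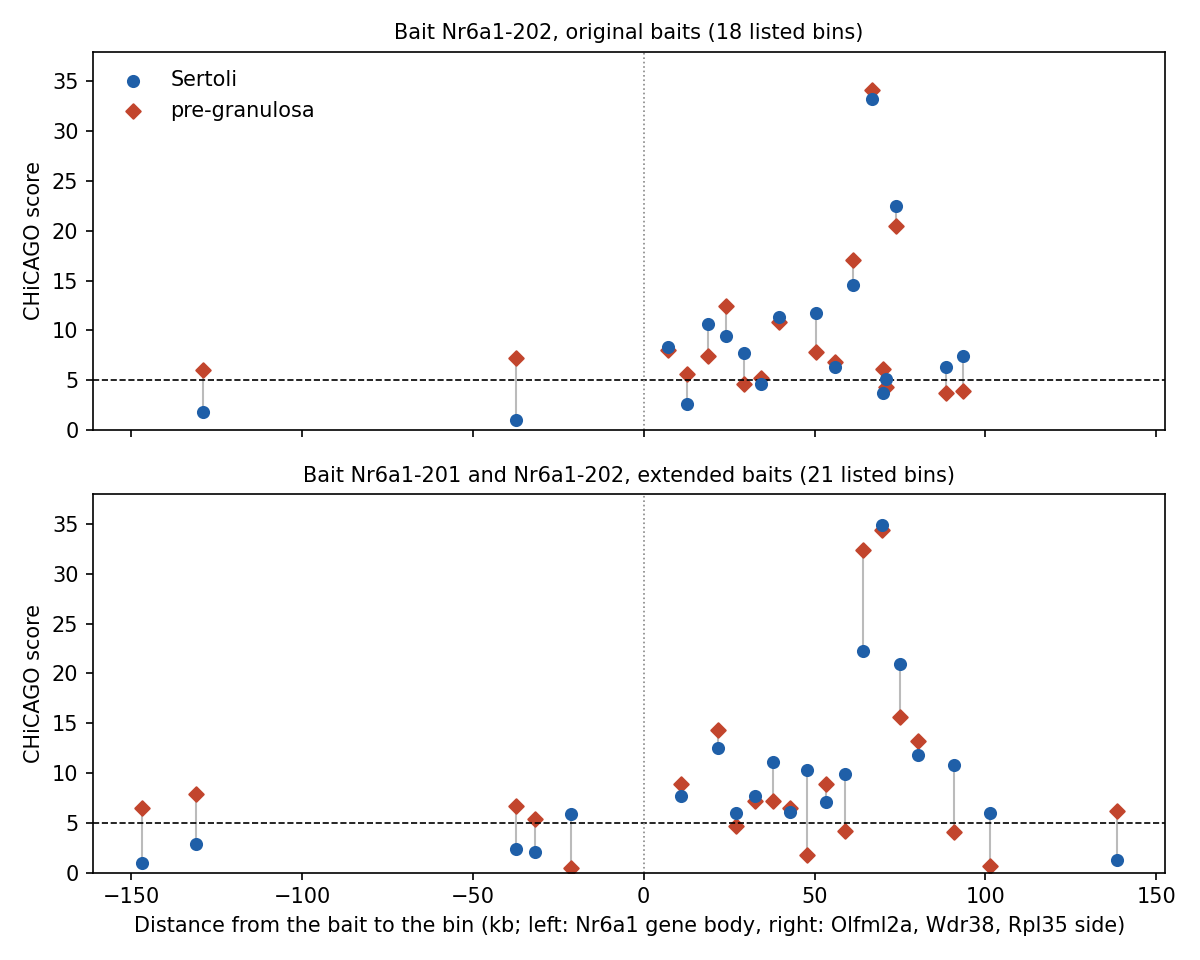
CHiCAGO scores (vertical axes) of the bins contacted by the bait Nr6a1-202 (above) and the bin holding it and Nr6a1-201 (below) against their distance from the bait in kb (horizontal axis), with original baits above and extended baits below; circles are Sertoli cells, diamonds pre-granulosa cells, grey lines join the scores of a bin, and the dashed line is the call threshold of 5. Both cell types peak near 67 to 70 kb on the Wdr38 side, with scores of 33.2 and 34.1 in the upper panel, while on the gene-body side the upper panel has 2 bins, both called in pre-granulosa cells alone.

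The extended bait, a bin that holds Nr6a1-201 and Nr6a1-202 together, also had its highest scores near Wdr38 and mostly pre-granulosa calls on the gene-body side. It had 21 listed bins, and 1.78% of the 11452 extended baits had as many. Of the 21, 16 were called in Sertoli cells (78% of all extended cis rows), 15 in pre-granulosa cells (56.3%) and 10 in both (34.3%). The bin that carries Wdr38-202 scored 34.9 in Sertoli and 34.4 in pre-granulosa cells. On the gene-body side, 4 of the 5 listed bins were called only in pre-granulosa cells, with scores up to 7.94 at -131.1 kb. Over all extended cis rows, 22% were called only in pre-granulosa cells and 43.7% only in Sertoli cells. The fifth, at -21.4 kb, was called only in Sertoli cells, at 5.84 against 0.43. At -37.4 kb, the bin that overlaps the one found with the original bait scored 6.67 in pre-granulosa and 2.35 in Sertoli cells. Both tables come from the same libraries, so the second does not repeat the first independently.

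Where both ends of a contact are baits, the extended table can list the pair from each end, and the values show how far a score depends on the end it is read from. From the bait of Wdr38, the contact with the Nr6a1 bin scored 103.0 in Sertoli and 33.8 in pre-granulosa cells. That Sertoli score ranked 1 of the 51524 cis rows. From the bait of Nr6a1 the same pair scored 34.9 and 34.4, so with the extended baits the excess in Sertoli cells was seen from 1 end only. Over the 9620 pairs listed from both ends, the asinh score (an inverse hyperbolic sine, close to a natural logarithm for high scores) differed between the ends by a median of 0.32 in Sertoli cells, with a 90th percentile of 0.85. For Nr6a1 and Wdr38 it differed by 1.08 in Sertoli and 0.02 in pre-granulosa cells.

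The top of the scale also limits what this pair can show. In the extended table, 66 pre-granulosa scores lay from 33 to 34, against 23 from 32 to 33, and only 22 lay higher. In Sertoli cells 53 lay from 33 to 34, against 31 from 32 to 33, and 198 lay higher. The pre-granulosa scores of this pair lie in or next to that crowded band, so a ratio of 103.0 to 33.8 is not read here as the size of a difference. With the original baits, 4, 6 and 9 Sertoli scores lay in the steps of 1 from 30 to 33, and the 33.2 of Nr6a1-202 was the only higher one. In pre-granulosa cells 2 scores there lay above 33, among them the 34.1 of Nr6a1-202. Its rank and the closeness of its scores therefore rest on the top of the scale too, and the cause of the crowding was not tested.

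With the original baits, Wdr38-202 contacted the fragment of Nr6a1-202 with scores of 7.68 in Sertoli and 4.28 in pre-granulosa cells. Read from Nr6a1-202 this pair scored 5.14 and 4.30, so it was called in Sertoli cells alone from both ends. The 6 listed bins of Wdr38-202 were all called in Sertoli cells alone, a class that holds 58% of all original cis rows. The pre-granulosa scores of the 3 nearest to Nr6a1 lay between 4.28 and 4.64, just under the threshold. The bait Nr6a1-201 (chr2:38925649-38926654), which overlaps the RefSeq start, listed 1 bin. It was the peak bin of Nr6a1-202, at 5.48 in Sertoli and 4.06 in pre-granulosa cells. Baits of neighbouring fragments thus gave scores of 33.2 and 5.48 for 1 bin.

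Other promoters of the block met Nr6a1 as well. The bin of Rpl35-201 and Arpc5l-202, the second of which serves a subunit of the Arp2/3 actin-nucleating complex, contacted Nr6a1 with 20.4 in Sertoli and 17.9 in pre-granulosa cells. Read from Nr6a1 this pair scored 11.8 and 13.2, so it was called in both cell types from both ends. Golga1-201, the promoter of a golgin of the trans-Golgi network, contacted Nr6a1 over 138.4 kb with 6.28 in Sertoli and 13.6 in pre-granulosa cells. Read from Nr6a1 it scored 1.26 and 6.19, so pre-granulosa cells had the higher score from both ends. With the original baits, Rpl35-201 contacted Nr6a1-202 with 6.56 in Sertoli and 1.75 in pre-granulosa cells.

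The baits most like the Nr5a1 and Nr6a1 baits, by the number of the 27 other ends of these baits that they also contacted in the extended table, were those of the same block. Olfml2a-201 had 6 of its 6 other ends in common with them and Wdr38-202 had 4 of 5. Golga1-206 followed with 3 of 7, the bin of Rpl35-201 and Arpc5l-202 with 2 of 3, and Golga1-201 with 1 of 3. Olfml2a-201 also had its highest score at the bin of Wdr38-202, with 32.6 in Sertoli and 25.0 in pre-granulosa cells. With the original baits its highest score, at the peak bin of Nr6a1-202, was 17.2 in Sertoli and 5.45 in pre-granulosa cells.

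Nr5a1-202 had 1 listed bin with the original baits, where the median bait had 2, and 3 with the extended baits, where the median was also 3. Bait Nr5a1-202 (chr2:38711437-38712358), lies inside the annotated gene. Its original bin, chr2:38704264-38709333, also lies within Nr5a1, and its Sertoli score of 6.35 against 0.99 made it a Sertoli call, which was lost at the threshold of 6.37. No row of the extended bait covered it. The extended bait listed 3 other bins, all on the Nr6a1 side. The bin at 26.9 kb, chr2:38736095-38741608, lies in the Nr6a1 gene body and was called only in pre-granulosa cells, at 5.996 against 2.76.

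The links between Nr5a1 and the promoters of Nr6a1 were called in Sertoli cells alone. From Nr5a1-202, the bin of Nr6a1-210, an internal Nr6a1 promoter 73.6 kb away, scored 10.5 in Sertoli and 4.02 in pre-granulosa cells. Read from Nr6a1-210 the same pair scored 5.40 and 2.20, so both ends gave the Sertoli call and neither the pre-granulosa call. The asinh difference between the cell types was 0.95 from Nr5a1 and 0.86 from Nr6a1-210. They differ by 0.09, and over all pairs listed from both ends the median of that change was 0.16. From Nr5a1-202, the bin of Nr6a1-201 and Nr6a1-202, 215.3 kb away, scored 7.95 in Sertoli cells, with a listed pre-granulosa score of 0. That pair had no row from the Nr6a1 end, so its Sertoli call came from 1 end only. With the original baits, Nr6a1-210 contacted the bin chr2:38693057-38698416 inside Nr5a1 with 6.97 in Sertoli and 0.04 in pre-granulosa cells, and the extended bait had no row there.

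In all, 4 rows joined an Nr6a1 bait to the Nr5a1 bait or gene body, and 2 of them are 1 pair read from each end. They had Sertoli scores from 5.40 to 10.5 and pre-granulosa scores from 0 to 4.02. All 4 were called only in Sertoli cells, a class that holds 58% of all original and 43.7% of all extended cis rows. The bin in the Nr6a1 gene body contacted by Nr5a1-202, given above, holds no Nr6a1 bait and was called only in pre-granulosa cells. A score listed at 0 was not always low from the other end. Of the 9620 pairs listed from both ends, 139 were listed at 0 in pre-granulosa cells from at least 1 end, of which 14 reached 5 from the other and 87 were at 0 from both. In Sertoli cells 60 of 130 reached 5 from the other end and 35 were at 0 from both.

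The internal promoter Nr6a1-210 (chr2:38783467-38784753) had 8 listed bins with the original baits. Of these, 6 were called in Sertoli cells (79.5% of all cis rows), 5 in pre-granulosa cells (42%) and 3 in both (21.5%). The shared bins were its nearest neighbours, at -3.79, -9.00 and 9.09 kb, where Sertoli cells scored 9.27, 7.51 and 9.70 and pre-granulosa cells 6.03, 5.90 and 8.92. The 3 bins called in Sertoli cells alone lay towards Nr5a1, at -35.0, -88.4 and -109.2 kb, and the last, over the pseudogene Adgrd2-ps, had a Sertoli score of 5.43 and a listed pre-granulosa score of 0. None of the 3 had a row with the extended bait, and those at -35.0 and -109.2 kb were lost at the threshold of 6.37. The 2 called in pre-granulosa cells alone lay at -19.2 and 90.5 kb, with scores of 5.14 and 5.77 against 2.09 and 2.20. The microRNA genes Mir181a-2 and Mir181b-2, which lie within Nr6a1, were overlapped by 0 listed bins of the members in either table.

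**Figure D2:**
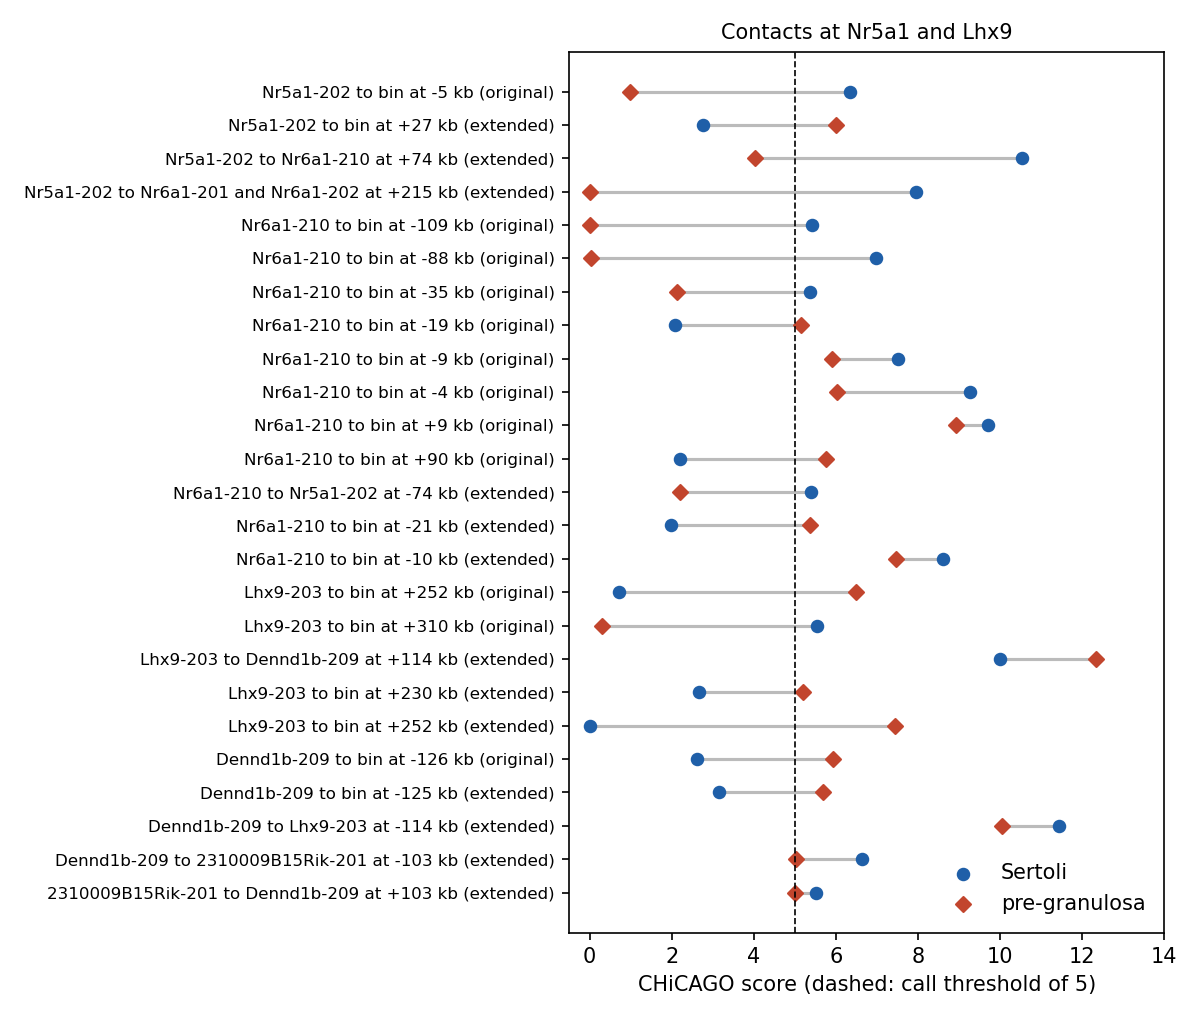
CHiCAGO scores (horizontal axis) of the contacts of Nr5a1-202, Nr6a1-210, Lhx9-203, Dennd1b-209 and 2310009B15Rik-201, 1 line per listed contact with its signed distance in kb and its table; circles are Sertoli cells, diamonds pre-granulosa cells, and the dashed line is the call threshold of 5. The lines that join Nr5a1-202 to Nr6a1 promoters have the circle above and the diamond below 5, and those that join Lhx9-203 and Dennd1b-209 have both symbols near 10 or higher.

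At Lhx9 the contact with the largest scores joined its promoter to that of Dennd1b, and it was present in both cell types. Seen from Lhx9-203, the bin of Dennd1b-209 at 114.3 kb scored 9.99 in Sertoli and 12.3 in pre-granulosa cells. Seen from Dennd1b-209 the pair scored 11.4 and 10.04. The sign of the difference between the cell types turned with the end, from -0.21 to 0.13 on the asinh scale, which happened in 897 of the 9620 pairs. The original baits listed neither direction of this pair.

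Dennd1b-209 also met 2310009B15Rik-201, a predicted protein-coding gene next to Lhx9. That pair scored 6.64 in Sertoli and 5.04 in pre-granulosa cells from Dennd1b, and 5.51 and 5.01 from the other end. It was called in both cell types from both ends, with pre-granulosa scores at the threshold. By other ends in common, 2310009B15Rik-201 was the only bait like those of Lhx9 and Dennd1b in the extended table, with its 1 other end among their 6.

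Longer contacts of Lhx9-203 (chr1:138847223-138849136) reached into the Dennd1b gene body and were called in 1 cell type each. The bin chr1:139097396-139102698, 251.9 kb away, scored 6.48 in pre-granulosa and 0.72 in Sertoli cells with the original bait. With the extended bait its pre-granulosa score was 7.45 and its Sertoli score was listed at 0, so both tables called it in pre-granulosa cells alone. The extended bait added the bin chr1:139075520-139081085, at 5.19 in pre-granulosa and 2.67 in Sertoli cells. The bin chr1:139155943-139161232 went the other way with the original bait, at 5.55 in Sertoli and 0.30 in pre-granulosa cells, but had no row with the extended bait and was lost at the threshold of 6.37.

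In the opposite direction, Dennd1b-209 (chr1:138963073-138963538) contacted the bin chr1:138834470-138839629 within Lhx9. It scored 5.92 in pre-granulosa and 2.62 in Sertoli cells with the original bait and 5.68 and 3.15 with the extended bait. Over all rows at Lhx9 and Dennd1b, the original baits gave 1 Sertoli call and 2 pre-granulosa calls with 0 shared, and the extended baits gave 4 and 7 with 4 shared. Over all cis rows these classes hold 79.5%, 42% and 21.5% of the original table. In the extended table they hold 78%, 56.3% and 34.3%. Of the 7 extended rows, 3 were called only in pre-granulosa cells and 0 only in Sertoli cells, where 22% and 43.7% of all cis rows were. The 4 shared rows are 2 pairs read from each end. With 3 and 7 rows these counts describe single contacts.

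**Figure D3:**
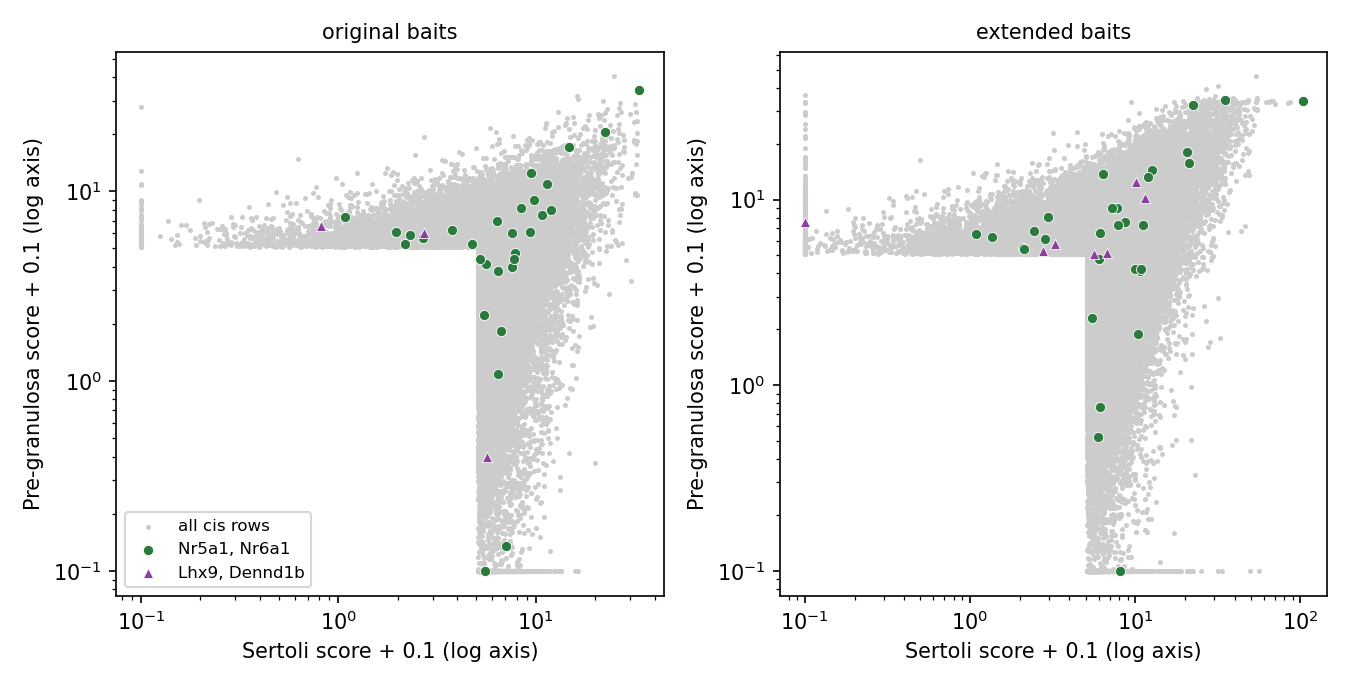
Pre-granulosa score against Sertoli score, both with 0.1 added and on log axes, for all cis rows (grey) with original baits on the left and extended baits on the right; green circles are rows at Nr5a1 and Nr6a1, purple triangles rows at Lhx9 and Dennd1b. The empty corner at the lower left is set by the listing rule of at least 5 in 1 cell type. The right-most green circle of each panel is the contact of Nr6a1 with the Wdr38 region, with Sertoli scores of 33.2 and 103.0.

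By their medians, the rows at Nr5a1 and Nr6a1 lay closer to the table as a whole than those at Lhx9 and Dennd1b. The median distance of the 30 original rows at Nr5a1 and Nr6a1 was 53.2 kb (95% order-statistic interval 29.3 to 70.8), and that of all cis rows was 40.7 kb. The interval treats rows as independent, but 18 of the 30 are bins of the bait Nr6a1-202. The bait Nr5a1-202 had 1 original row, at -5.10 kb, and 3 extended rows, at 26.9, 73.6 and 215.3 kb. The 3 rows at Lhx9 and Dennd1b lay at 126.3, 251.9 and 310.4 kb. With the extended baits the medians were 61.5 kb for 30 rows and 114.3 kb for 7 rows, against 48.1 kb for all cis rows.

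A further 3 lists of related genes gave few baits to set beside the members, and their counts are descriptions only. The tables used here hold baits on 10 chromosomes, so that genes elsewhere could have no row. Of 25 transcription factors of the early gonad, 7 lie on these chromosomes, and Wt1 and Lhx2 had a bait. With the original baits Wt1-205 had 4 Sertoli and 0 pre-granulosa calls and Lhx2-205 had 4 and 2. With the extended baits Wt1-205 had 4 and 1, the bin of Wt1-207 and Wt1-201 had 2 and 1, Lhx2-205 had 3 and 3 and Lhx2-202 had 1 and 1. Of 24 genes known as SF-1 targets, 14 lie on these chromosomes and 8 had 11 original baits, of which 7 had more Sertoli calls (63.8% of all baits), 1 had more pre-granulosa calls (23.6%) and 3 had equal numbers. Among them Star, which carries cholesterol into mitochondria, had 2 Sertoli and 0 pre-granulosa calls from its original bait but 3 and 2 from its extended bait. Cyp11a1, the side-chain cleavage enzyme that starts steroid synthesis, had 5 and 1 from Cyp11a1-201 and 4 and 4 from Cyp11a1-202, and 6 and 1 and 7 and 5 from their extended baits. Inha, the inhibin alpha subunit, had 1 and 0, and 4 and 1 with the extended bait. Gnrhr, the receptor of gonadotropin-releasing hormone, had 1 and 2 in both tables. On a log2 scale, the ratio of the Sertoli call number to the pre-granulosa one, with 1 added to each, had a median of 0.81 over these baits, of 1.53 over the 2 baits of the early gonad factors and of 0.74 over all baits. With the extended baits it was 0.42 over the 13 baits of the SF-1 targets and 0.29 over the 4 of the early gonad factors, against 0.26 over all baits. Of the 13, 8 had more Sertoli calls (52.4% of all extended baits), 3 had more pre-granulosa calls (27.8%) and 2 had equal numbers. Scarb1-205, a promoter of the lipoprotein receptor SR-BI, had 8 and 2 there and 7 and 3 with the original bait. The aromatase gene Cyp19a1 had 2 Sertoli and 4 pre-granulosa calls there and 2 and 2 with the original bait. Insl3, a hormone of fetal Leydig cells, had 2 and 3 and no row with an original bait.

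The last list held 17 genes: LIM homeobox genes, the NR5 and NR6 receptor genes and the LIM cofactor genes Ldb1 and Ldb2, members included. Of these, 14 lie on the chromosomes with baits and 13 had 19 original baits. More Sertoli calls were seen at 16 of them (63.8% of all original baits), more pre-granulosa calls at 2 (23.6%) and equal numbers at 1. Nr6a1-202 was 1 of the 2, with 13 and 14 calls, and Lmx1b-201, with 0 and 1, was the other. Lhx9-203 was the bait with equal numbers. The median log2 ratio was 1 over the 19 baits and 0.74 over all original baits. It was 0 over the 17 extended baits of the list, against 0.26 over all extended baits. Of those 17, 8 had more Sertoli calls (52.4% of all extended baits) and 2 more pre-granulosa calls (27.8%), and 1 of the 8 was the Ldb2 bait, with 1 and 0.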

How the data were processed

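The deposited tables hold CHiCAGO interaction scores, named so by the authors in the table names, with 1 score column per cell type for 3 Sertoli and 2 pre-granulosa libraries. Per the labels' protocols, chromatin was cut with DpnII, and per the submitters' processing notes the build was mm10. Tool versions, read filters and the way libraries were combined are not given in the sources used here. The original table has single fragments as baits (median 812 bp over cis rows) and the extended table bins of about 5 kb (median 5326 bp). In both, 0 cis rows had a higher score under 5. Of the bait symbols found in RefSeq (GRCm38.p6), 98.7% lay within 5 kb of their gene in either table.

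Rows were selected by gene symbol after removal of the transcript number, with Python 3.11.15, pandas 2.3.3 and numpy 2.4.6, and counting was tested on simulated rows. A signed distance runs from the bait to the other end, towards higher coordinates when positive. The members, gene lists and tests were chosen with earlier results of these data known. Named are the members, the genes at the ends of their rows, up to 5 baits per locus with the most other ends in common, and some listed genes with a bait. Rows of the members that are not given singly are held in the counts. The lists' further baits are given as counts. With 1 value per cell type no test, interval for a difference or left-out library was possible. Intervals cover counting error only and treat rows as independent, although rows of 1 bait share reads.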

Additional observations from a re-analysis of the deposited data

How the results depend on the processing

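No paired analysis was possible because no numbered library has a column of its own, and no library could be left out. The depth behind the scores is unknown. At Nr5a1 and Nr6a1, a threshold of 7 gave 14 Sertoli and 10 pre-granulosa calls and a threshold of 10 gave 6 and 5, with 4 shared. Equal numbers of calls over the table gave 16 and 19, with 11 shared, which turned the order of the counts. A minimum of 50 kb gave 13, 8 and 5, and joining touching bins gave 15, 10 and 7. With the 3 original rows at Lhx9 and Dennd1b, thresholds of 7 and of 10, not applied to the extended rows, left 0 calls in either cell type, equal numbers of calls left 0 Sertoli calls, and the extended baits gave 4 Sertoli calls, 7 pre-granulosa calls and 4 shared, at a median distance of 114.3 kb; at a threshold of 7 that distance had no value. Fewer rows pass a higher threshold or minimum distance by construction. The cause of the other changes was not tested.

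Of the 33 original rows, 25 had an overlapping extended row, and 17 kept the sign of the score difference. The other 8 were bins upstream of Nr6a1-202, and their asinh differences changed to -0.15 (bin starting at 38932210), -0.13 (38943472), 0.23 (38949146), 0.0712 (38959441), -0.22 (38975130), 0.86 (38980783), 0.0145 (38991470) and 0.0145 (38997385). The bins have other borders in that table. The bins on the gene-body side of Nr6a1-202 and those of Lhx9-203 and Dennd1b-209 that had an overlapping row were among the 17.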
